A study of Homo sapiens with 6 samples.

Results

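SMAD2 binding sites that stood alone in the genome and recurred in every library were described in a human breast cancer line, Hs578T, which is triple-negative (it lacks both hormone receptors and HER2 amplification). Summits of the deposited peak lists, each the single base of highest signal in a peak, were joined into sites where they lay within 250 bp of the next. A site was taken as an isolated shared site when all 4 libraries had a summit there and no other site of any library lay within 20 kb on either side. There were 1297 such sites on chromosomes 1 to 22 and X, which is 3.54% of all 36647 sites and 22.3% of the 5829 sites in all 4 libraries. The remaining 4532 shared sites, which had a neighbour within 20 kb, served for comparison. Presence in all libraries and distance to neighbours chose the sites, so neither is a finding about them.

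The activin group had 2 libraries from cells given activin A at 50 ng/ml for 1.5 h. The palbociclib group had 2 libraries from cells given the same activin A and also palbociclib at 1 µM for 24 h. Both groups thus received activin, and binding without activin was not analysed here. The labels tie each treatment to its own input DNA for peak calling, so the input cannot be told apart from the treatment. The labels give replicates as separate samples and say nothing of separate cultures, so p-values measure only the spread between these libraries, which may be technical.

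SMAD2 is phosphorylated by the activin and TGF-β receptors, joins SMAD4 and gathers in the nucleus. It holds DNA poorly by itself, and SMAD4 and partner transcription factors direct the complex to promoters and enhancers. Palbociclib inhibits CDK4 and CDK6, the kinases that drive cells into S phase and that can also phosphorylate SMAD3. A genome and annotation of hg19, the build of the lists, were not used here. Genes, motifs and sequences at the sites were therefore not analysed here, and each site is named by its hg19 position.

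The peak lists were of unequal length. They held 7241 summits in activin replicate 2 and between 19226 and 27290 in the other 3 libraries. The sources used here give no numbers of reads, and the depth is unknown. The authors' score of a peak is on a −log10 scale and grows with depth as well as with enrichment. Scores are therefore compared as percentiles within a library over the 5829 shared sites, where 0 is the strongest and 100 the weakest site. Such a percentile is a relative place and says nothing of the absolute amount of bound SMAD2.

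How the isolated sites fell over the libraries is given as a description with no test, because presence in libraries and distance to neighbours both chose the sites. In all, 4387 sites of any library had no other site within 20 kb, and 29.6% of them were in all 4 libraries. Of the 32260 sites with a neighbour, 14.0% were. Single-library sites made up 20.9% of the isolated sites and 42.3% of the others. The rule itself bears on these shares, because a summit displaced by more than 250 bp in another library forms a second site and ends the isolation of the first.

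**Figure D1:**
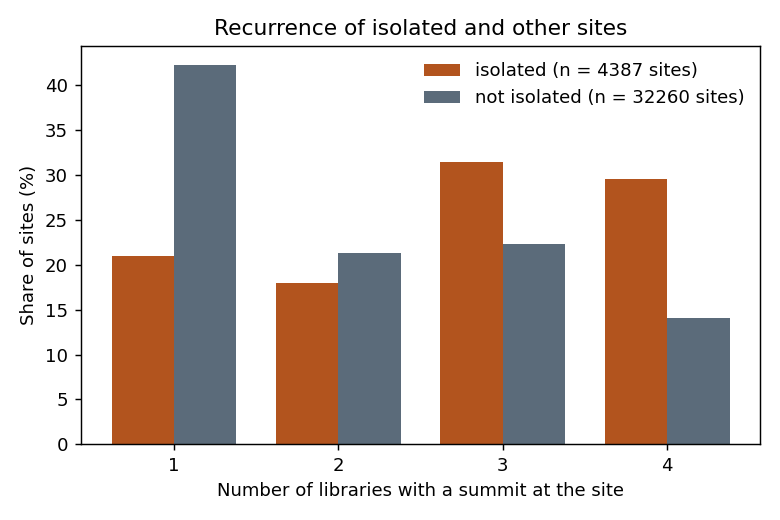
Share of isolated sites (no other site within 20 kb) and of all other sites, in percent on the vertical axis, by the number of libraries with a summit there, as a description of how the sites were chosen. Isolated sites are at 29.6% in 4 libraries and the others at 14.0%.

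The shortest list set which isolated sites could be shared. Activin replicate 2 held 1301 isolated sites, of which 1297 were also in the other 3 libraries (99.7%), and 5919 sites with a neighbour, of which 4532 were (76.6%). The rule limits this too, since a site of activin replicate 2 with a displaced summit of another library nearby is not isolated. No isolated site was found in activin replicate 2 alone, or in both activin libraries alone. Both palbociclib libraries alone shared 59 isolated sites, which is 1.34% of the isolated sites, against 3.86% of the sites with a neighbour. Across treatments, activin replicate 1 alone shared 724 with palbociclib replicate 1 and 5 with palbociclib replicate 2. Activin replicate 2 alone shared 0 and 1 with them. Of the 1382 isolated sites found in exactly 3 libraries, 1379 lacked only activin replicate 2. The isolated shared sites are thus nearly all the isolated sites that the shortest list holds.

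The 1379 isolated sites that lacked only activin replicate 2 were weaker in each of the other lists. In activin replicate 1 the median score was 71.65 at the isolated shared sites (quartiles 53.97 and 96.29) and 22.61 at those 1379 sites (13.48 and 34.65). In palbociclib replicate 1 the medians were 116.49 and 33.86, and in palbociclib replicate 2 they were 53.37 and 13.40. The lower quartile of the isolated shared sites lay above the upper quartile of the other isolated sites in each of these 3 libraries. The presence of a summit in activin replicate 2 chose between these 2 sets, so the gap in score is given as a description with no test.

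Within the shared sites, isolated sites ranked slightly below the rest in every library, and this direction depended on activin replicate 2 and on which sites counted as neighbours. In activin replicate 1 the median percentile was 53.9 at isolated sites and 48.6 at the remaining shared sites. It was 53.9 against 48.9 in activin replicate 2, 52.2 against 49.1 in palbociclib replicate 1 and 53.1 against 49.0 in palbociclib replicate 2. Isolated sites were weaker in 4 of 4 libraries, by 4.39 ± 0.97 percentile points in the mean (SD, n = 4). The exact sign-flip permutation test over 4 libraries gave p = 0.125 (two-sided), which is the smallest p that 4 libraries allow. All 4 libraries were ranked over the same sites with the same isolated ones among them. Their agreement is therefore not independent, and the test cannot show that it would recur with other sites. When sites were rebuilt without activin replicate 2, isolated shared sites ranked stronger than the rest, with a difference of −10.6 points. That set held 2771 isolated sites among 14053 sites shared by 3 libraries. Their median percentile was 42.5 against 52.4 in activin replicate 1, 41.2 against 52.6 in palbociclib replicate 1 and 42.0 against 52.3 in palbociclib replicate 2. With all libraries kept, the difference was 0.96 points when only sites in at least 2 libraries counted as neighbours (from −0.25 to 3.02 over the libraries). It was −0.77 points when only sites in all libraries did (from −2.43 to 3.14).

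**Figure D2:**
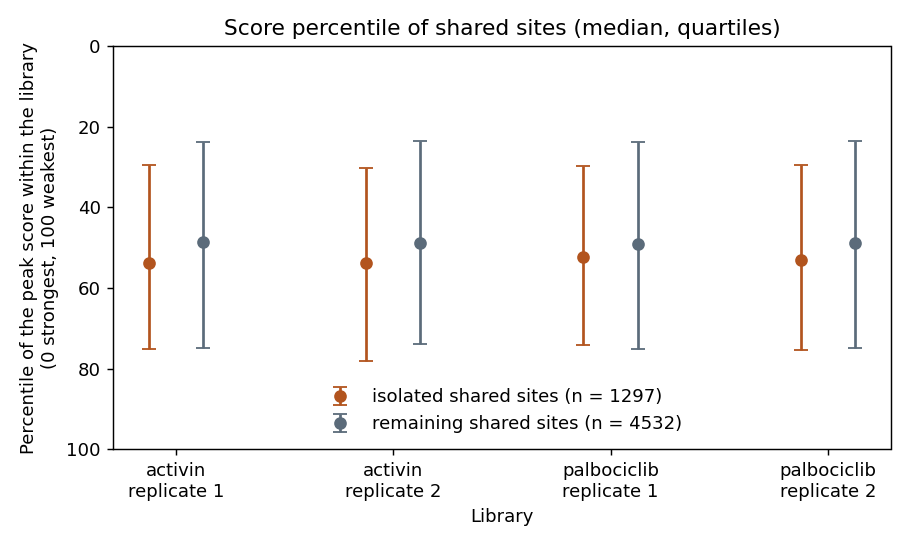
Percentile of the peak score within each of the 4 libraries, on a vertical axis that runs from 0 (strongest) at the top to 100 at the bottom; points are medians over sites and bars the quartiles. The isolated shared sites lie between 52.2 and 53.9 and the remaining shared sites between 48.6 and 49.1, with quartiles that overlap widely.

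The same turn showed in the full lists, where no presence in other libraries was asked for. Isolation was still judged against the sites of all 4 libraries, so a displaced summit of another library ended it here too. The libraries were scored over a joint set of sites, so their agreement is not independent. Over all 25414 sites of activin replicate 1, the median percentile was 36.5 at isolated sites and 52.4 at the others. It was 35.6 against 52.8 in palbociclib replicate 1 and 36.1 against 52.9 in palbociclib replicate 2. In activin replicate 2 the values lay close together, at 48.5 and 49.8. Isolated sites were stronger in 4 of 4 libraries, by −12.8 ± 7.68 points (SD, n = 4; exact sign-flip permutation test, two-sided p = 0.125, the smallest possible). Isolated sites were thus stronger than other sites in whole lists, with a difference of only −1.32 points in activin replicate 2. Among the sites shared by all 4 libraries they were weaker than the others.

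The highest scores fell to both kinds of site. The best-ranked 10% of a library's shared sites took in 6.32% of the isolated sites in activin replicate 1 and 11.0% of the remaining ones. The shares were 6.94% and 10.9% in activin replicate 2, 7.40% and 10.7% in palbociclib replicate 1, and 6.78% and 10.9% in palbociclib replicate 2. Isolated sites were also fewer in the last 10% of 3 libraries, for example 7.02% against 10.9% in palbociclib replicate 1. In activin replicate 2 they were more, 11.5% against 9.77%. Ordered by mean percentile over the libraries, the 10 best shared sites included 4 isolated ones, the best 100 included 10 and the best 500 included 73 (14.6%), against 22.3% of all shared sites.

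The strongest isolated shared site lay on chromosome 1 from 147806682 to 147806738, with no other site for 70.7 kb on the left and 434 kb on the right. Replicates 1 and 2 scored it at 325.68 and 118.77 after activin and at 675.56 and 359.37 after palbociclib. These scores placed it at ranks 11, 7, 3 and 4 of the shared sites. The next lay on chromosome 2 from 122288636 to 122288666, at ranks 7, 8, 5 and 6 in the same order of libraries. Both sites were within the best 11 of every library.

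Some of the other leading isolated sites were neighbours of one another. On chromosome 1, the site from 147735947 to 147735983 lay 70.7 kb from the strongest one and had scores of 368.03, 107.39, 569.27 and 254.76. A site from 146556000 to 146556116 had scores of 337.14, 88.43, 601.10 and 321.17, and one from 210547319 to 210547407 had 290.14, 125.97, 537.66 and 312.24. On chromosome 17, sites from 56736385 to 56736417 and from 56709168 to 56709208 lay 27.2 kb apart. The former scored 352.46 and 109.10 after activin and 467.58 and 258.58 after palbociclib. The latter scored 212.84 and 62.93 after activin and 511.84 and 273.19 after palbociclib. Their mean ranks differed in opposite directions, 8 after activin and 34 after palbociclib at the former, 66.2 and 22.5 at the latter. Neither site passed the limma test over all shared sites (adjusted p = 0.269 and 0.414).

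The last 3 of the 10 strongest isolated sites lay on chromosomes 2, 15 and 8. The chromosome 2 site, from 121832847 to 121832870, had percentiles of 1.08 and 1.90 after activin and 0.103 and 0.395 after palbociclib. The chromosome 15 site, from 75052766 to 75052806, had mean percentiles of 0.65 ± 0.66 and 1.42 ± 1.24 in the activin and palbociclib groups (SD, n = 2 each). The chromosome 8 site, from 33370992 to 33371095, had 1.39 ± 1.22 and 1.12 ± 0.34. At the last pair of sites the replicates of the groups overlapped.

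At the other end of the scale, the 3 weakest isolated shared sites lay at percentile 97.0 or beyond in every library. A site on chromosome 13 from 27699861 to 27699969 had scores of 19.83 and 2.61 after activin and 21.50 and 5.42 after palbociclib, with replicate 1 given before replicate 2. A site on chromosome 3 from 152016661 to 152016857 had 15.50, 2.61, 12.59 and 14.37. A site on chromosome 1 from 121260972 to 121261276 had 24.39, 2.79, 19.21 and 12.77. The next site to the right of the chromosome 1 site was 21630 kb away. Whether reads can map across this distance was not analysed here, so it may not measure isolation of binding.

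Isolated sites were weaker the farther they lay from any other site. The nearest other site was 20.2 kb to 2742 kb away, with a median of 60.1 kb, against a median of 0.818 kb for the remaining shared sites. Among the 538 isolated sites with a neighbour at up to 50 kb, the median percentile was between 47.3 and 49.3 in the 4 libraries. It was between 53.2 and 55.7 at the 391 sites with the nearest neighbour at over 50 and up to 100 kb, and between 58.4 and 60.7 at the 368 sites beyond 100 kb. The order of the 3 classes was the same in 4 of 4 libraries, which were ranked over the same sites and are not independent in this. It also held when sites were rebuilt without any 1 library. Without activin replicate 2 the medians ran from 38.6 to 39.6, from 40.2 to 41.8 and from 45.3 to 46.2 across the remaining libraries.

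**Figure D3:**
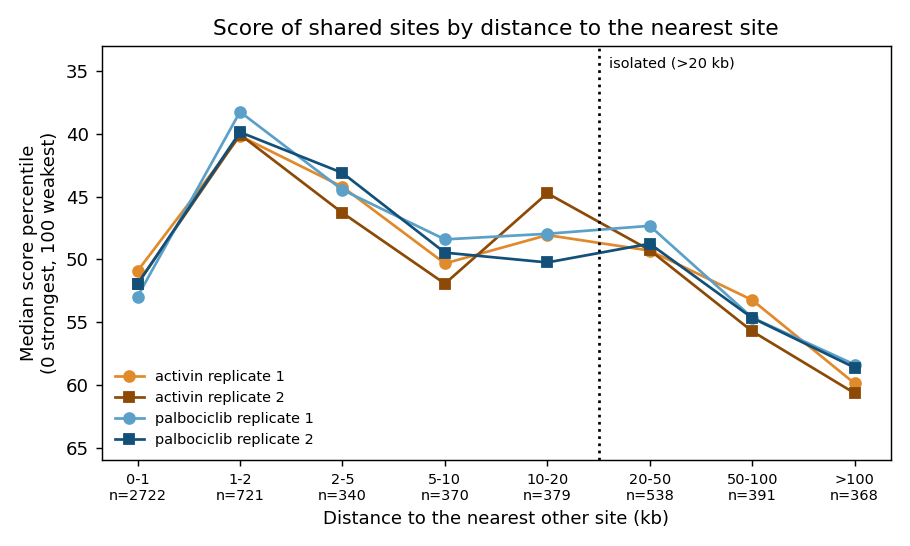
Median score percentile of shared sites in each of the 4 libraries (vertical axis, 0 strongest, drawn upwards) by the distance to the nearest other site in kb, with the number of sites under each class; the dotted line marks 20 kb. The 3 isolated classes fall from about the middle of the scale to medians of 58.4 to 60.7 beyond 100 kb, and the strongest class is that at 1 to 2 kb.

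Shared sites with a neighbour did not follow 1 line with distance. The strongest class was that with the nearest site at 1 to 2 kb, with medians between 38.2 and 40.2 in the 4 libraries (n = 721). The 2722 sites with another site within 1 kb had medians between 50.9 and 53.0. Isolated sites at 20 to 50 kb thus lay close to the classes at 5 to 20 kb, whose medians ran from 44.7 to 51.9.

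The loneliest shared site was on chromosome 3 from 81810468 to 81810518, with the next sites 2742 kb to the left and 3197 kb to the right. Its scores were 52.61 and 4.32 after activin and 118.60 and 43.19 after palbociclib. Its percentiles were 77.1 and 88.4 in the activin libraries and 50.6 and 66.8 in the palbociclib libraries, so the groups did not overlap. The limma test gave an adjusted p of 0.199. By distance it was followed by a site on chromosome 6 (49430900 to 49431174), then by sites on chromosome 18 (37380154 to 37380238), chromosome 4 (93226737 to 93226941) and chromosome 14 (79745626 to 79745750). Their nearest sites were 1479 to 1985 kb away, and their mean percentiles lay between 59.6 and 89.6. All 5 were in the weaker part of the shared sites, and 26 isolated sites had no neighbour within 500 kb.

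The limit of 20 kb cut through sites of all strengths. The 3 isolated sites just inside it had mean percentiles of 89.4 on chromosome 12 from 57984783 to 57985089 (nearest site at 20.161 kb), 13.1 on chromosome 1 from 46016379 to 46016391 (20.167 kb) and 51.6 on chromosome 9 from 134248752 to 134248794 (20.21 kb). The 3 shared sites just outside had 80.9 on chromosome X from 102611458 to 102611480 (19.998 kb), 18.1 on chromosome 14 from 68162412 to 68162449 (19.956 kb) and 44.0 on chromosome 1 from 145610864 to 145610987 (19.93 kb). The 3 strongest shared sites with a neighbour began at position 45187391 of chromosome 1, 65597286 of chromosome 15 and 8076677 of chromosome 17. Their nearest sites were 0.971, 6.92 and 2.96 kb away, and their mean ranks were 1.75, 4.88 and 7.

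The nearest neighbours of isolated shared sites varied in the number of libraries that held them. The nearest other site was in 1 library for 28.3% of the isolated shared sites, in 2 for 16.2%, in 3 for 30.6% and in all 4 for 24.9%. As background, 42.3% of all sites with a neighbour within 20 kb were in 1 library and 14.0% in all 4. Among all isolated sites these shares were 20.9% and 29.6%. The nearest other site was itself an isolated shared site for 187 of the 1297 (14.4%). Isolated shared sites that followed one another with no other site between them numbered 342 (26.4%). The longest such runs had 5 sites. One spanned 726 kb on chromosome 3 from 148804244 to 149530542, with mean percentiles from 38.1 to 65.4. The other spanned 444 kb on chromosome 7 from 64023389 to 64467033, with mean percentiles from 36.1 to 85.9.

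The summits of an isolated site lay close together in the 4 libraries, as they did at the remaining shared sites. The distance from the first to the last summit had a median of 47 bp at isolated sites (quartiles 29 and 95, range 2 to 508) and 46 bp at the others (27 and 87.2, range 0 to 515). Only 3 of the 1297 sites had more than 1 summit in any library. At those with 1 summit per library, the mean summit positions of the groups differed by a median of 17.5 bp. The activin replicates differed by 27 bp and the palbociclib replicates by 17 bp. These are differences between single libraries, which spread more than differences between group means, so the sizes are not directly comparable. Summits lay farther apart at weaker isolated sites. The median distance from the first to the last summit went from 40 bp in the strongest of 4 equal groups to 45, 50 and 63 bp in the following ones.

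Isolated sites were spread unevenly over the chromosomes. They made up 35.2% of the shared sites of chromosome 13 (Wilson 95% interval 26.8 to 44.7, for counting error only), 32.6% on X (26.0 to 39.9) and 29.7% on chromosome 4 (23.9 to 36.2). The share was 11.1% on chromosome 17 (8.20 to 14.9) and 11.4% on chromosome 19 (8.60 to 15.1). Chromosomes 13 and 4 had 5.98 and 6.31 sites of any kind per Mb, whereas chromosomes 17 and 19 had 31.7 and 52.4. Since neighbours end isolation, the density of sites enters the rule. For the same reason sites are not independent of one another, and no test between chromosomes was made. The strength of the isolated sites differed too. Their median mean percentile was 40.2 on chromosome 1 (151 sites) and 75.1 on chromosome 19 (43 sites). These 6 chromosomes were chosen for their values after these were seen.

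The treatment contrast asked whether isolated sites changed their place among the shared sites when CDK4 and CDK6 were inhibited. The difference between isolated and remaining sites in median percentile was 5.15 ± 0.17 points after activin alone and 3.64 ± 0.71 after palbociclib with activin (SD, n = 2 each). The change of −1.51 points is toward a stronger place after palbociclib. With 2 libraries against 2, exact permutation gave a two-sided p = 0.333, the smallest p that this design allows. The sign turned when only summits with a score of at least 10 were used (0.55 points).

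The place of isolated sites differed between treatments in both directions. At 380 of the 1297 sites both palbociclib libraries ranked stronger than both activin libraries, which is 29.3% (Wilson 95% interval 26.9 to 31.8, for counting error only). Over all 5829 shared sites this background was 26.2%, and over the remaining sites 25.3%. At 347 isolated sites, or 26.8% (24.4 to 29.2), both palbociclib libraries ranked weaker, against a background of 28.2% and 28.6% of the remaining sites. In either direction the groups did not overlap at 56.1% of the isolated sites, against 54.4% of all shared sites. Both shares of isolated sites thus lie within a few points of the background. The surplus of stronger over weaker isolated sites depended on the libraries used. It was lost without activin replicate 2, at 38.2% stronger and 38.9% weaker (remaining sites 36.6% and 37.9%), and without palbociclib replicate 1, at 36.0% and 37.3% (remaining 34.1% and 37.8%). It stayed without activin replicate 1, at 42.3% and 41.9% (remaining 38.7% and 44.7%), and without palbociclib replicate 2, at 38.2% and 35.6% (remaining 34.2% and 38.5%). With scores of at least 10 the shares were 25.2% and 29.7% (remaining 26.8% and 28.9%). With percentiles over all sites of each library, whose lists differ in length, 24.4% of isolated sites were stronger and 1.00% weaker, beside 25.7% and 1.90% of the remaining sites.

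**Figure D4:**
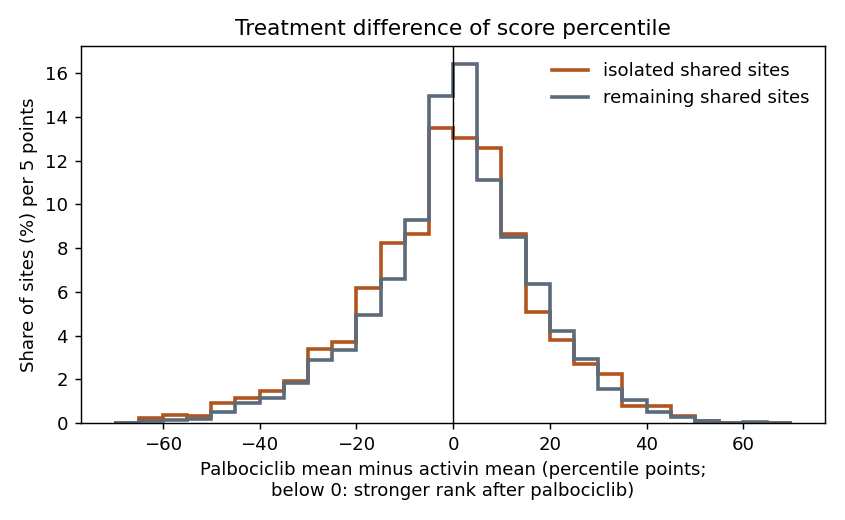
Treatment difference of each shared site (mean percentile after palbociclib minus mean after activin alone, in percentile points, below 0 for a stronger place after palbociclib) as the share of sites per 5 points on the vertical axis. Both distributions are centred near 0, with medians of −0.02 for the isolated and 0.68 for the remaining shared sites.

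Differences at isolated sites were a little wider than at the remaining sites. The treatment difference had a median of −0.02 points at isolated sites (quartiles −11.7 and 9.70) and 0.68 at the others (−8.53 and 10.3). Its median size was 10.7 points at isolated sites, against 9.33 points between the activin replicates and 6.17 between the palbociclib replicates at the same sites. At the remaining sites these values were 9.54, 9.09 and 6.06. The treatment value is a difference between group means, whereas the replicate values are differences between single libraries, which spread more. Their sizes are therefore not directly comparable. A difference of over 30 points was seen at 10.6% of isolated sites (83 stronger and 54 weaker after palbociclib) and at 8.43% of the remaining sites. Percentiles are bounded, with less room to differ near 0 and 100. Isolated sites were fewer in the best-ranked 10% of every library, and in the last 10% of all but activin replicate 2. How far this bears on the wider differences was not tested.

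A test over all shared sites that took the libraries as unpaired called no isolated site. Normal scores of the ranks were fitted with limma over the 5829 sites, and 0 of 1297 isolated sites had an adjusted p under 0.05, against 0% of all shared sites. The smallest adjusted p was 0.106. At an unadjusted p under 0.05 there were 298 isolated sites, or 23.0%, beside 21.8% of all shared sites. Of these, 174 of the 1297 isolated sites were stronger after palbociclib and 124 weaker. The background was 658 stronger and 615 weaker of the 5829 shared sites (11.3% and 10.6%). Without activin replicate 1, limma called 193 isolated sites, or 12.5%, the same as the 12.5% of all sites then fitted. In that fit 1 activin library stands alone and is assumed to vary like the palbociclib libraries. With all libraries and the replicate number as a block, limma called 226 isolated sites (17.4%, against 16.5% of all shared sites). The labels give no shared culture or day for a replicate number, so limma values of single sites are from the unpaired fit.

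The contrast also varied with the strength of the site, a comparison chosen after the values were seen. Shared sites were split into 5 equal groups by mean percentile. In the 3 strongest groups, between 28.5% and 30.0% of isolated sites were stronger after palbociclib, close to the 27.8% to 29.0% of the remaining sites there. In each of these groups slightly more isolated sites were weaker, 29.4% to 31.0%, beside 28.6% to 31.3% of the remaining sites. In the next group, 102 of 296 isolated sites were stronger (34.5%) and 65 weaker, whereas 23.7% of the remaining sites were stronger and 27.7% weaker. In the weakest group, 24.0% of 262 isolated sites were stronger and 22.9% weaker, against 17.1% and 26.1% of the remaining sites. The excess of isolated over remaining sites with a stronger place after palbociclib thus lay mostly in these last 2 groups. There the stronger share of the remaining sites was itself lower than in the other groups. No test was made of this difference.

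Across the classes of distance the shares followed no 1 direction. Of the 538 isolated sites at 20 to 50 kb, 28.3% were stronger after palbociclib and 25.3% weaker. At 50 to 100 kb the shares were 28.1% and 29.2% (n = 391), and beyond 100 kb they were 32.1% and 26.4% (n = 368). The background over all shared sites was 26.2% stronger and 28.2% weaker.

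The 10 isolated sites with the largest differences without overlap between groups were extremes picked by their values, and none passed the limma test. The largest difference toward a stronger place after palbociclib was on chromosome 9 from 36258488 to 36258532. Replicates 1 and 2 scored it at 51.20 and 2.46 after activin and at 199.07 and 69.14 after palbociclib. Its percentile was 88.9 ± 14.2 after activin and 24.9 ± 13.4 after palbociclib (SD, n = 2 each). Next came chromosome 13 from 45563580 to 45563711, with scores of 37.43 and 3.49 after activin and 144.59 and 80.68 after palbociclib. Its ranks were 5316 and 5522 after activin and 2082 and 1461 after palbociclib. At both sites the weakest palbociclib library stood far above the best activin library. Their scores in activin replicate 2, the shortest list, lay near the lowest score of that list, 1.4. The limma test over all shared sites gave an adjusted p of 0.106 for each.

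Another 3 sites had differences of −62.2 to −56.5 points, also toward a stronger place. On chromosome 14, from 75179714 to 75179834, the scores were 35.19 and 2.31 after activin and 163.30 and 63.47 after palbociclib. The 2.31 again lay near the lowest score of activin replicate 2. On chromosome 7, from 66146990 to 66147013, they were 65.65 and 4.32 against 219.65 and 82.64. On chromosome 17, from 47866208 to 47866306, they were 56.89 and 5.98 against 196.80 and 90.53. The chromosome 17 site had the least spread of the 3, at 74.0 ± 3.05 and 17.5 ± 2.00 percentile points (SD, n = 2 each). Each of the 3 had an adjusted p of 0.106 in limma.

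**Figure D5:**
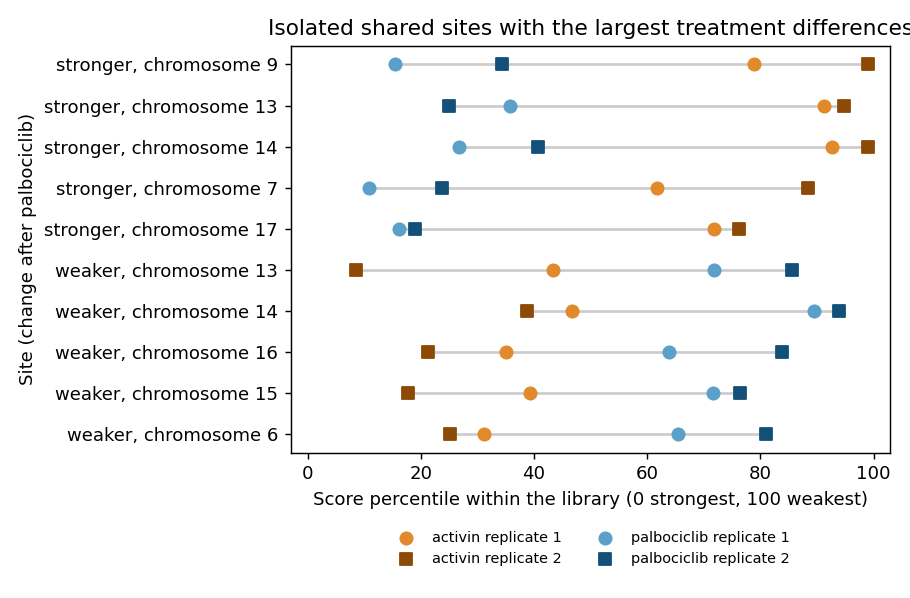
Score percentile in each of the 4 libraries (horizontal axis, 0 strongest) for the 5 isolated shared sites with the largest difference toward a stronger and the 5 with the largest toward a weaker place after palbociclib, named by chromosome. The groups do not overlap at any of them, by the rule that chose them, and the activin replicates lie farthest apart at the chromosome 13 site with the weaker place.

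The largest difference toward a weaker place was on chromosome 13 from 26796282 to 26796342, 31.9 kb from its nearest site. Its scores were 80.83 and 25.35 after activin and 85.84 and 29.25 after palbociclib. Its percentiles were 43.4 and 8.52 in the activin libraries, and 71.8 and 85.6 in the palbociclib libraries. The scores of the groups overlapped. Scores grow with depth and are not compared between libraries, so only the place among the shared sites is read here. The group means were 25.9 ± 24.6 and 78.7 ± 9.81 (SD, n = 2 each), and limma gave an adjusted p of 0.120. The chromosome 14 site from 52456138 to 52456371 had percentiles of 42.7 ± 5.53 and 91.6 ± 3.10 (SD, n = 2 each). There the scores were 78.04 and 12.15 after activin and 56.04 and 21.50 after palbociclib.

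The last 3 differences toward a weaker place, of 45.0 to 45.7 points, were at sites far from any other. They were a site on chromosome 16 (27561188 to 27561218), a site on chromosome 15 (59665055 to 59665070) and a site on chromosome 6 (106773493 to 106773788). Their nearest sites were 235, 268 and 239 kb away. The chromosome 6 site had percentiles of 31.2 and 25.1 after activin and 65.4 and 81.0 after palbociclib. Adjusted p-values in limma were 0.108, 0.107 and 0.106.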

How the data were processed

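SMAD2 ChIP-seq peak lists of 4 libraries were used; data of the 2 input libraries were not used here. The submitters' processing notes name the aligner Bowtie (1.1.0), Picard, the peak caller MACS2 (2.0.9) and the build hg19, with the steps and settings not given in the sources used here. Per the labels, peaks were called against the input of the same treatment. The deposited score is on a −log10 scale and was taken to be −log10 of a q-value (p or q is not stated), since the lowest scores, 1.31 to 1.4, lie just above −log10 of 0.05, which is 1.30. Depth is unknown, which limits the precision of every score.

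The restriction to chromosomes 1 to 22 and X removed 1 summit. Distances run from edge to edge of sites and take no account of stretches where reads cannot map. A site's score in a library is that of its best summit there. Percentiles use average ranks for ties. Group differences were tested by exact permutation over libraries, and single sites with limma 3.58.1 (R 4.3.3) on normal scores of the ranks over all shared sites, with Benjamini-Hochberg adjustment at 0.05. Code was tested on simulated data. Other tools were Python 3.11.15 with pandas 2.3.3, numpy 2.4.6, matplotlib 3.10.9 and scipy 1.17.1. Coordinates are 1-based.

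The sites and tests were chosen with earlier results of these data known. Sites named are the 10 strongest and 3 weakest isolated ones, the 5 largest gains and 5 largest losses without overlap, the 5 farthest from any site, 3 on each side of the 20 kb limit, and the 3 strongest remaining. Alternatives covered joining and isolation distance, score filters, list length, left-out libraries, rank scale and replicate number. The fixed plan also named lists of genes and motifs, which were not analysed here without hg19.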

Additional observations from a re-analysis of the deposited data

How the results depend on the processing

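The 1297 isolated shared sites became 759 with an isolation distance of 50 kb, 2977 with lists of equal length, and between 1390 and 2771 with 1 library left out. Counting only sites in at least 2 libraries or in all libraries as neighbours, which was chosen after seeing the data, gave 2181 and 4271. The rank difference of 4.39 points (weaker isolated sites) ran from −10.6 without activin replicate 2 to 4.62 with 1 library left out, and was −0.77 when only sites in all libraries counted as neighbours. In the other alternatives it stayed positive. The treatment contrast of −1.51 points ran from −3.46 to −0.50 with 1 library left out and turned to 0.55 with scores of at least 10.

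Of isolated sites, 25.2% ranked stronger and 29.7% weaker after palbociclib with scores of at least 10, and 24.4% and 1.00% with percentiles over all sites of lists of unequal length (remaining shared sites 26.8% and 28.9%, then 25.7% and 1.90%). With 1 library left out, when 3 libraries decide, the shares ran from 36.0% to 42.3% stronger and from 35.6% to 41.9% weaker, beside 34.1% to 38.7% and 37.8% to 44.7% of the remaining sites. Deviations of same-numbered libraries correlated at 0.28 over 5829 sites, but the labels give no shared culture or day. With the replicate number as a block, 35.1% were stronger and 34.2% weaker in both pairs (remaining 32.6% and 37.0%), the contrast was again −1.51 points (exact sign-flip permutation p = 0.5, the smallest possible), and limma called 226 isolated sites (17.4%, against 16.5% of all shared sites) in place of 0. Limma calls ran from 0 to 193 with 1 library left out, the 193 without activin replicate 1. The cause of these changes was not tested, beyond the smaller number of lists. Depth is unknown, and its only traces here are list length and the size of the scores, which also grow with enrichment.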
